A study of Mus musculus with 9 samples.

Results

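The cytoplasmic translation initiation and elongation factors are the proteins that load messenger RNA onto the ribosome, select the start codon and move the ribosome along the coding sequence. Their genes were taken from the deposited table by name, as the protein-coding genes named Eif1 to Eif6, Eef1 or Eef2 with any suffix. Pseudogenes, the 4E-binding proteins, the eIF2 kinases, Eef1e1 and the Y-linked Eif2s3y were left out. This gave 53 of the 26858 genes.

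RNA was sequenced from nephron progenitors, the cap mesenchyme cells from which the nephron forms, sorted from mouse kidneys at E18.5 of gestation. The cells were marked by a fusion of eGFP and Cre recombinase that a bacterial artificial chromosome transgene drives from the Six2 promoter. In Six2-Qpc−/− mutants (n = 5 libraries, replicates 74, 75, 77, 78 and 79) Cre deletes the floxed Qpc gene, listed as Uqcrq, which encodes a subunit of mitochondrial complex III. The control libraries (n = 4, replicates 71, 72, 73 and 76) came from Six2-Qpc heterozygotes, Six2-Qpc+/−, which carry the same transgene and lose Qpc on 1 allele only, so no library was free of Cre. The cDNA was amplified from very little RNA with poly(A) selection and without strand information. Litter, sex and the number of embryos behind a library are not given in the sources used here, and p-values measure the spread between these libraries.

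At the start of translation, eIF1 and eIF1A hold the small ribosomal subunit open while it scans the leader of the mRNA, eIF2 brings the initiator tRNA, and eIF5 triggers GTP hydrolysis by eIF2 when the start codon is met. The exchange factor eIF2B reloads eIF2 with GTP, eIF3 is the large scaffold on the small subunit, and the eIF4 proteins bind and unwind the capped end of the mRNA. Elongation needs eEF1A to deliver aminoacyl-tRNA, eEF1B to recharge it and eEF2 to translocate the ribosome. Progenitors of the growing kidney divide and make protein rapidly, and many of these factors are among the most abundant mRNAs of any dividing cell.

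The translation factor mRNAs were higher in the mutant for 11 of the 52 genes that could be tested, and none was lower (edgeR quasi-likelihood test, Benjamini-Hochberg adjusted p under 0.05 over all 14990 genes tested). Over all tested genes 7.82% were called higher and 7.02% lower, against 21.2% and 0 of the translation factors. The 11 were Eif5, Eif1, Eif2s2, Eif4a2, Eif4e3, Eef1g, Eif3a, Eif1a, Eif4g2, Eef1a1 and Eif1ad, with fitted rises from 1.30-fold for Eif1ad to 1.89-fold for Eif1. The median log2 fold change of the 52 factors was 0.29, against −0.01 over all tested genes and 0.11 over the 2425 genes whose mean level reached 100 CPM, as it did for 37 of the factors. CPM are counts for each 1000000 counts of a library, after TMM scaling of its size. An unadjusted p under 0.05 was found for 28 of the 52 factors, 53.8%, against 31.4% of all tested genes.

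Sequences around the start codon are shown because reading that codon is what eIF1, eIF1A, eIF2 and eIF5 do. They run 5′ to 3′ from 6 bases before the start codon to the base after it, from GENCODE vM21 transcripts (GRCm38), and the capitals mark the base at −3, the ATG and the base at +4.
Eif1: tatCgtATGT
Eif1b: tgtCgcATGT
Eif3b: gggCccATGC
Eif5: gccAaaATGT
Eif2s2: acaGccATGT
Eif1ax: gcgGccATGC
Eif4a2: cggAtcATGT
Eef1a1: gcaAaaATGG
Eef2: gccAccATGG
Eif1, Eif1b and Eif3b were the 3 of 52 factors with neither a purine at −3 nor a G at +4, the favoured bases, a share of 5.77% against 7.39% of 20433 coding genes. Eef1a1 and Eef2 were among the 28 factors with both, a share of 53.8% against 41.5% of all coding genes. Of the 10 genes called higher that have an annotated ATG start, 9 had a purine at −3 and 3 had a G at +4. Over all coding genes these shares were 84.5% and 49.6%, and over the 52 factors 90.4% and 57.7%.

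The leader of Eif5 was the longest shown here, with 626 bases, and held 5 ATG triplets upstream of the start codon, written in the same way and in their order along the leader.
Eif5, upstream ATG at −543: acgTgcATGC
Eif5, upstream ATG at −533: gagCcaATGA
Eif5, upstream ATG at −230: gggTttATGT
Eif5, upstream ATG at −122: tttTtcATGT
Eif5, upstream ATG at −90: tcgTttATGT
None of the 5 had a purine at −3 or a G at +4. The Eif1 leader of 245 bases held 1 upstream ATG, gacTccATGG, which has the favoured G at +4. An upstream ATG was present in 18 of the 52 factors with an annotated ATG start, 34.6%, against 55% of all coding genes, and in 6 of the 10 genes called higher.

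The targeted gene and the depth of the libraries were checked before the factors. Uqcrq was at 76.8 to 107 CPM in the controls and at 16.4 to 28.2 CPM in the mutants, so it was lower in every mutant library. The libraries held 21040536 to 23986458 counts, of which the 53 factors took 2.01% to 2.42% in the controls and 2.43% to 2.81% in the mutants. Eef1a1 was the largest part of this share, with mean levels of 6279 CPM in the controls and 8819 CPM in the mutants. The share without Eef1a1 was not computed. Progenitor markers summed to 2106 to 2545 CPM in the controls and 2079 to 2512 CPM in the mutants, with 1 of 10, Tmem100, called lower. Of 8 stromal markers 5 were called higher, with sums of 100.5 to 187 CPM against 247 to 630.1 CPM, and of 5 macrophage markers 2 were called higher, with sums of 2.39 to 6.35 CPM against 5.63 to 52.6 CPM. Of 9 markers of committed or epithelial cells 3 were called lower, with sums of 366 to 699 CPM against 272 to 408 CPM. The ureteric bud list had none of 6 called (5.85 to 30.6 CPM over all libraries), the endothelial list 1 of 5 (2.49 to 7.07 CPM) and the erythroid list none of 6 (1.39 to 2.66 CPM), with Hba-a2 and Hbb-bt at no more than 3 counts. The part of these markers in the factor results was not tested, and in bulk RNA a change in the cells sorted and a change in RNA per cell cannot be told apart.

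Reads on the Y-linked genes were present in control 72, control 73 and mutant 79 and absent or at most 3 counts in the other libraries, which held Xist instead, so the genotypes differ in the makeup of the embryos by sex. With the 6 libraries without Y-linked reads alone, a comparison of 2 controls with 4 mutants chosen after the data were seen, none of the 52 factors was called (edgeR), 8 had an unadjusted p under 0.05, the median log2 fold change was 0.24, and 90 genes were called over the whole table. The libraries with Y-linked reads hold 1 mutant, too few for a comparison of their own. With the Y-linked level as a covariate in all 9 libraries, 10 factors were called higher, 19.2% against 6.35% of all genes tested. Of these 10 factors, 9 were among the 11.

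**Figure D1:**
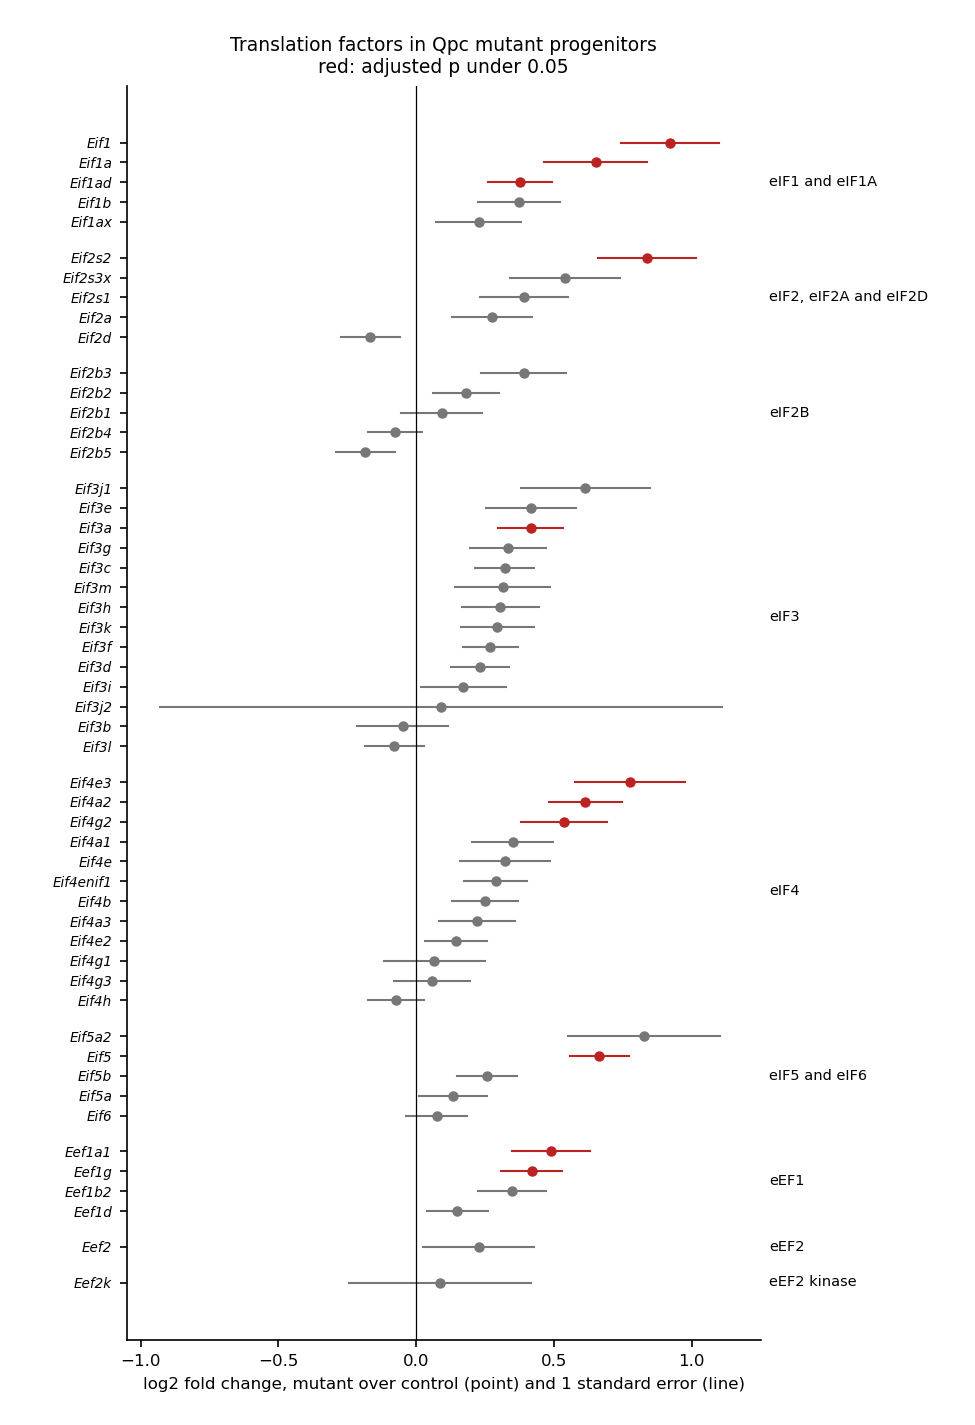
Fitted log2 fold change, mutant over control, of the 52 tested translation factors (points) with 1 standard error on each side (lines), grouped by factor. The 11 red points, with an adjusted p under 0.05, all lie right of 0, and 6 grey points lie left of it.

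Both scanning factors had members that rose. Eif1 (chr11:100319885-100322096), the guardian of start codon choice, was at 838, 648, 799 and 838 CPM in control 71, 72, 73 and 76, and at 909, 1598, 1722, 1771 and 1391 CPM in mutant 74, 75, 77, 78 and 79. All mutant libraries lay above all controls, with mutant 74 closest to them. The log2 fold change was 0.92 ± 0.18 (SE), adjusted p = 0.00589. Its close relative Eif1b was at 145, 102, 114 and 143 CPM in the controls and 136, 182, 184, 179.9 and 132 CPM in the mutants. The genotypes overlapped, through mutants 74 and 79, and the difference of 0.37 ± 0.15 did not pass the threshold (adjusted p = 0.106).

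Eif1a, an eIF1A gene on chromosome 18, was at 272, 232, 220.3 and 309 CPM in the controls and 279, 486, 464, 499 and 302 CPM in the mutants. Mutants 75, 77 and 78 stood above every control, and mutants 74 and 79 lay within the controls' range. The log2 fold change was 0.65 ± 0.19 and passed the threshold (adjusted p = 0.0339). The X-linked Eif1ax, the other eIF1A gene, was at 205, 156, 208 and 246 CPM in the controls and 178, 261, 272, 264 and 217 CPM in the mutants. These overlapped, and the 95% interval of its log2 difference, −0.08 to 0.53, includes 0. Eif1ad (chr19:5366813-5371511), which encodes a protein with an eIF1A-like domain, was at 71.4, 61.2, 65.4 and 72 CPM against 80.0, 93.9, 97.0, 92.2 and 75 CPM. The genotypes did not overlap, by a small margin, and the log2 fold change was 0.38 ± 0.12 (adjusted p = 0.0446). The call of Eif1ad was lost with upper-quartile normalization (adjusted p = 0.0652), without a filter (0.0894), with cyclic loess (0.0651), with the Y-linked covariate (0.0746) and in 7 of the 9 fits that left out 1 library. Exons of Eif1ad share 428 bases with Banf1 on the opposite strand, whose reads cannot be separated without strand; Banf1 itself was at 204 to 317 CPM in the controls and 239.7 to 359 CPM in the mutants (adjusted p = 0.387).

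The subunits of eIF2, the carrier of the initiator tRNA, all had positive fitted differences, and the beta subunit passed the threshold. Eif2s2 (chr2:154871410-154892935), encoding eIF2 beta, was at 215, 147, 197 and 236 CPM in the controls and 236, 373, 415, 419 and 332 CPM in the mutants. Mutant 74 was level with control 76, at 236.1 against 235.7 CPM, and the other mutants stood well above. The log2 fold change was 0.84 ± 0.18, adjusted p = 0.00939. Eif2s1, encoding eIF2 alpha, the subunit that stress kinases phosphorylate, was at 204, 166, 199 and 246 CPM and at 200.1, 303, 308, 305 and 219.8 CPM. Mutants 74 and 79 lay within the controls' range, and 0.39 ± 0.16 did not pass (adjusted p = 0.111). Per kilobase of listed gene length the alpha and beta mRNAs were alike. Their mean RPKM (reads per kilobase and per 1000000 reads) was 70.2 and 69.6 over the 9 libraries. Eif2s3x, encoding eIF2 gamma, was lower at 19.9.

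Eif2s3x lies on the X chromosome and has a Y-linked copy, Eif2s3y. Eif2s3x was at 51.0, 47.5, 47.8 and 85.0 CPM in the controls and 73.2, 83.3, 106, 97.0 and 61.7 CPM in the mutants. Control 76 stood apart from the other controls and within the mutants' range, and the difference of 0.54 ± 0.20 missed the threshold (adjusted p = 0.0814). Without control 76, which is 1 of the 2 controls without Y-linked reads, it was 0.80 and passed (adjusted p = 0.0117), and with the Y-linked covariate it was 0.39 and did not (adjusted p = 0.131). Eif2s3y was at 68.1, 96.8 and 102 CPM in control 72, control 73 and mutant 79, where it exceeded Eif2s3x. The summed level of the pair was 99.1 ± 40.3 CPM (SD, n = 4) in the controls and 105 ± 35.3 CPM (SD, n = 5) in the mutants, within the spread between libraries.

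No subunit of eIF2B, the exchange factor of eIF2, passed the threshold, which 14.8% of all tested genes passed in either direction. The median log2 fold change of the 5 subunits was 0.09. Eif2b3, encoding the gamma subunit, had the highest fitted difference, 0.39 ± 0.15 (adjusted p = 0.102), from 71, 58.4, 70 and 73.9 CPM in the controls and 71.4, 101, 107, 102 and 67.6 CPM in the mutants. Mutants 74 and 79 lay among the controls. Eif2b5, encoding the catalytic epsilon subunit, had the most negative fitted value of all 52 factors, −0.18 ± 0.11 (adjusted p = 0.258), from 122, 120.3, 138 and 114 CPM and 123, 105, 112, 98.4 and 106 CPM. Mutant 74 again lay among the controls and the other mutants below them. Eif2b1 was at 166, 124, 128 and 166 CPM in the controls and 126.2, 164, 186, 171 and 129.6 CPM in the mutants, and Eif2b2 at 215, 168, 183 and 228 CPM and 204, 231, 234, 253 and 204 CPM. Eif2b4 was at 88.4, 84.2, 86.9 and 83.6 CPM and at 74.1, 81.1, 85.8, 81.2 and 84.5 CPM. The genotypes overlapped for all 3, and the intervals of the differences include 0, at −0.20 to 0.38, −0.05 to 0.42 and −0.27 to 0.12 on the log2 scale. Of the other factors that can bring initiator tRNA, Eif2a had a fitted value of 0.27 ± 0.14 (adjusted p = 0.216) and Eif2d of −0.17 ± 0.11 (adjusted p = 0.313).

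**Figure D2:**
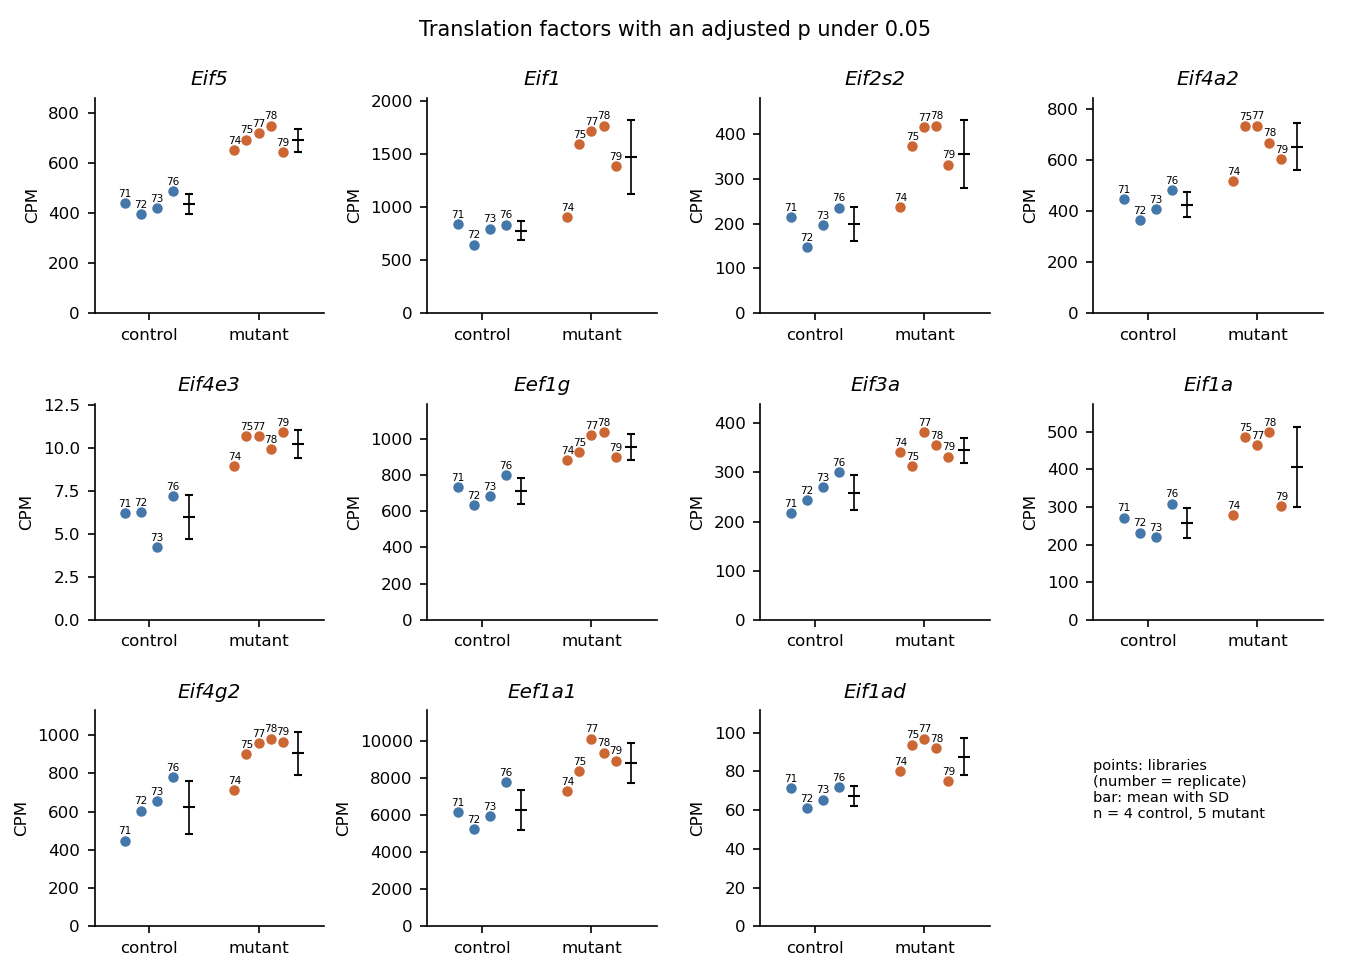
Level in each library, in CPM from 0 on a linear axis, of the 11 translation factors with an adjusted p under 0.05. Points are libraries numbered by replicate, and bars give the mean with the SD (n = 4 control, 5 mutant). Mutant 74 is the lowest mutant for Eif1, Eif2s2, Eif4a2, Eif4e3, Eef1g, Eif1a, Eif4g2 and Eef1a1.

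Of the 14 eIF3 genes 1 was called higher, which is near the share over all tested genes, 7.82%. This was Eif3a (chr19:60761116-60790693), which encodes the largest subunit, on which the complex is built. Eif3a was at 218, 244, 270.1 and 301 CPM in the controls and 342, 312, 382, 356 and 332 CPM in the mutants. All mutants lay above all controls, with a log2 fold change of 0.42 ± 0.12 (adjusted p = 0.032). Eif3c and Eif3f, encoding further core subunits, also did not overlap between genotypes without passing the threshold. Eif3c was at 206, 224, 230.5 and 219 CPM against 265, 235, 293, 276 and 305 CPM (0.32 ± 0.11, adjusted p = 0.0588), and Eif3f at 248, 209.7, 228 and 235 CPM against 268, 259, 281, 279 and 300.5 CPM (0.27 ± 0.10, adjusted p = 0.0832). Counting these, 11 of the 52 factors were higher in every mutant than in any control library, 21.2% against 7.5% of all tested genes, and 8 of the 11 were also called.

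The other eIF3 subunits had fitted values from −0.08 for Eif3l to 0.61 for Eif3j1, none of which passed the threshold, and Eif3b and Eif3l were negative. The mRNAs of the complex were far from equal per kilobase, although their proteins assemble together. Mean RPKM was 531 for Eif3k, 281 for Eif3h and 264 for Eif3g, against 59.2 for Eif3a, 51.3 for Eif3d and 11.9 for Eif3j1. Median log2 fold change over the 12 subunits other than the eIF3j genes was 0.30.

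The loosely attached eIF3j subunit has a pair of genes, Eif3j1 and the single-exon copy Eif3j2 on chromosome 18. Eif3j1 was at 45.7, 54.6, 47.8 and 50.6 CPM in the controls and 34.5, 74.7, 96.2, 99.9 and 75.1 CPM in the mutants. Mutant 74 was below every control and the other 4 mutants above, and 0.61 ± 0.24 missed the threshold (adjusted p = 0.092). Eif3j2 was at 16.6, 1.99, 9.06 and 12.3 CPM in the controls and 26.7, 21.3, 1.89, 1.67 and 1.41 CPM in the mutants. It was high in mutants 74 and 75 and near its lowest in mutants 77, 78 and 79 and in control 72, so the split did not follow genotype, and its log2 difference had a 95% interval from −1.91 to 2.09. The summed level of both genes was 59.6 ± 3.44 CPM (SD) in the controls and 86.7 ± 17.3 CPM in the mutants, with mutant 74, at 61.2 CPM, within the controls. How the authors' counting divided reads between these similar copies is not given in the sources used here, and exons of Eif3j1 also share 1107 bases with Spg11 on the opposite strand, which was at 4.22 to 12.9 CPM.

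**Figure D3:**
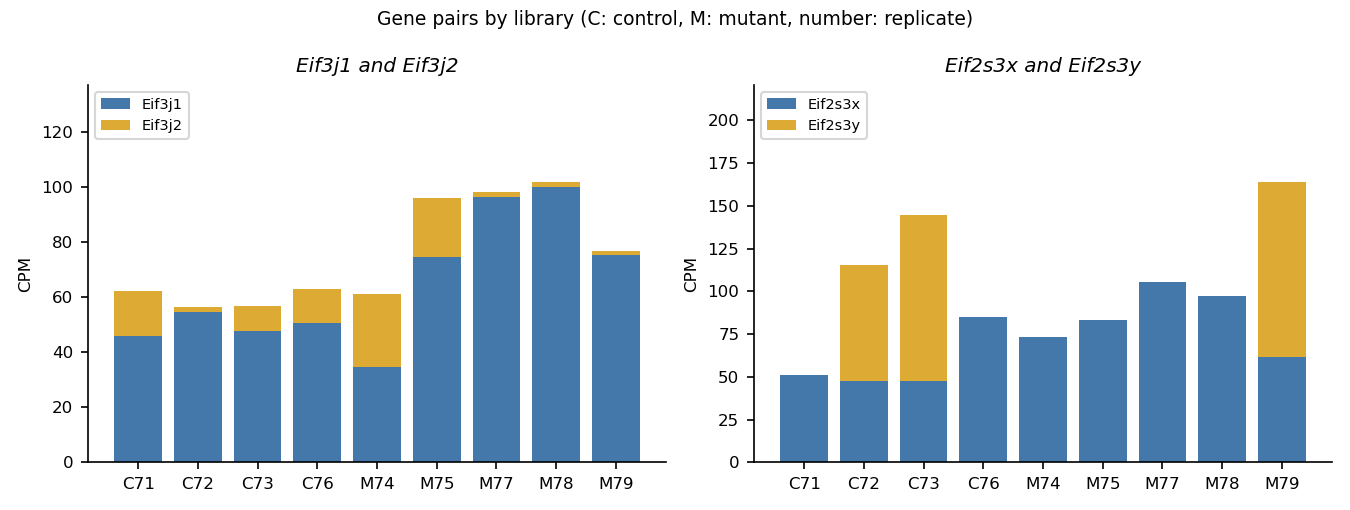
Stacked levels in CPM of Eif3j1 with Eif3j2 and of Eif2s3x with its Y-linked copy Eif2s3y, in each control (C) and mutant (M) library. Eif3j2 is low in C72, M77, M78 and M79, and Eif2s3y is seen in C72, C73 and M79.

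Among the 12 eIF4 genes 3 were called higher, Eif4a2, Eif4e3 and Eif4g2, where 7.82% of all tested genes were. Eif4a2 (chr16:23107444-23114136), a helicase of the cap-binding complex, was at 449, 365, 409.6 and 483 CPM in the controls and 519, 734, 736, 669.7 and 606 CPM in the mutants. All mutants lay above all controls, and the log2 fold change was 0.61 ± 0.13 (adjusted p = 0.00982). Small nucleolar RNA genes lie within Eif4a2, and 194 bases of its exons overlap Rfc4 on the opposite strand, which was at 74.1 to 110.2 CPM in the controls and 61.2 to 95.1 CPM in the mutants. Its paralog Eif4a1, the more abundant helicase, was at 1176, 989, 1102 and 1377 CPM against 1162, 1748, 1568, 1665 and 1260.1 CPM, overlapping, with 0.35 ± 0.15 (adjusted p = 0.123). Expressed as a share of the reads per kilobase of both helicases, Eif4a2 took 30.9%, 30.2%, 30.3% and 29.1% in the controls and 34.3%, 32.9%, 35.4%, 32% and 36% in the mutants. The share was higher in every mutant than in any control, with means of 30.1 ± 0.753% and 34.1 ± 1.68% (SD).

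Eif4g2 (chr7:111070568-111083030), also known as DAP5, an eIF4G relative that lacks the part that binds the cap-binding protein, was at 448, 605, 656 and 782 CPM in the controls and 712, 901, 959, 982 and 966 CPM in the mutants. Mutant 74 lay below control 76 and the other mutants above all controls (0.54 ± 0.16, adjusted p = 0.036). Eif4e3 (chr6:99625135-99666771), the least abundant of the cap-binding proteins, was at 6.22, 6.27, 4.21 and 7.21 CPM and at 8.95, 10.7, 10.7, 9.94 and 10.9 CPM. The genotypes did not overlap, and the log2 fold change was 0.78 ± 0.20 (adjusted p = 0.0218). Its exons overlap those of Gm20696 on the same strand by 373 bases, so some of its reads are uncertain.

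The major cap-binding protein, Eif4e, was at 410.4, 318, 363 and 485 CPM in the controls and 379, 574, 554, 567 and 393 CPM in the mutants. The genotypes overlapped through mutants 74 and 79, and 0.32 ± 0.16 did not pass (adjusted p = 0.197). The scaffold Eif4g1 was at 86.0, 159, 166 and 117 CPM and at 175, 117, 132, 124 and 144 CPM, and its paralog Eif4g3 at 67.4, 78.6, 67.8 and 72.9 CPM and at 93.6, 60.3, 68.9, 67.3 and 83.1 CPM. Mutant 74 was highest of all libraries for both, the genotypes overlapped, and the 95% intervals were −0.29 to 0.43 and −0.21 to 0.33. Eif4enif1, encoding the 4E transporter 4E-T, did not overlap (68.0 to 89.2 CPM against 90.4 to 112 CPM) but did not pass (0.29 ± 0.12, adjusted p = 0.106). Eif4b and Eif4h, which aid the helicase, had fitted values of 0.25 ± 0.12 and −0.07 ± 0.10, Eif4a3, the helicase of the exon junction complex, of 0.22 ± 0.14, and Eif4e2, a cap-binding protein that represses translation, of 0.14 ± 0.11. None of these 4 passed the threshold (adjusted p from 0.173 to 0.66). Eif4e2 was at 192, 159, 173 and 178 CPM in the controls and 185, 209, 197, 216 and 163 CPM in the mutants, with overlap.

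Eif5 (chr12:111538101-111546753) had the smallest p of all the factors. It was at 442, 397, 420.4 and 489.8 CPM in the controls and 652, 696, 723, 751 and 645 CPM in the mutants. The lowest mutant, at 645 CPM, stood above the highest control, at 489.8 CPM, by more than the range within either genotype. The log2 fold change was 0.67 ± 0.11, a rise of 1.59-fold (adjusted p = 0.00248). Eif5b, the GTPase that joins the ribosomal subunits, was at 85.0, 70.6, 87.3 and 77.3 CPM and at 99.4, 100.4, 97.7, 96.2 and 84.6 CPM. Mutant 79 lay within the controls and apart from the other mutants, and 0.26 ± 0.11 did not pass (adjusted p = 0.125). Its exons share 1643 bases with Rev1 on the opposite strand, which was at 26.1 to 48.3 CPM over all libraries.

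Eif5a, the factor modified with hypusine that helps the ribosome through difficult stretches, was the second most abundant factor mRNA per kilobase (mean RPKM 1062). It was at 1533, 1234, 1443 and 1584 CPM in the controls and 1443, 1614, 1732, 1800.3 and 1354 CPM in the mutants. The genotypes overlapped, and the 95% interval of the log2 difference was −0.11 to 0.38 (adjusted p = 0.499). Its rare paralog Eif5a2 was at 5.03, 8.18, 6.36 and 11.1 CPM and at 8.10, 14.3, 18.0, 16.5 and 11.3 CPM. Mutant 74 lay within the controls, and the fitted value of 0.83 ± 0.28, among the largest here, missed the threshold (adjusted p = 0.0589). Eif6, which keeps the large ribosomal subunit from joining early, ranged from 205 to 259 CPM in the controls and 205 to 254 CPM in the mutants (adjusted p = 0.686).

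For elongation, the delivery factor and a subunit of its exchange factor were called higher, the former not under every normalization. Eef1a1 (chr9:78478449-78489151) was the most abundant factor mRNA, with a mean RPKM of 4287. It was at 6170.5, 5235, 5927 and 7785 CPM in the controls and 7294, 8381, 10125, 9364 and 8929.8 CPM in the mutants. Mutant 74 lay below control 76 and the other mutants above all controls, with 0.49 ± 0.14 (adjusted p = 0.0364). With cyclic loess normalization the log2 fold change of Eef1a1 was 0.20 and did not pass (limma-voom, adjusted p = 0.169), nor did it with upper-quartile normalization (0.46, adjusted p = 0.0509). Eef1g (chr19:8967041-8978479), encoding the gamma subunit of eEF1B, was at 734, 631, 683 and 800.2 CPM and at 882, 926, 1019, 1036 and 899 CPM. No library overlapped, and the log2 fold change was 0.42 ± 0.11 (adjusted p = 0.0246). The eEF1B subunit genes Eef1b2 and Eef1d had fitted values of 0.35 ± 0.12 (adjusted p = 0.0726) and 0.15 ± 0.11 (adjusted p = 0.383). Eef1a2, the eEF1A gene of muscle and neurons, had 0 to 3 counts per library and was not tested.

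The translocase Eef2 behaved unlike Eef1a1 across the libraries. It was at 843, 1112, 971 and 829.8 CPM in the controls and 1475, 694, 959, 935 and 1432 CPM in the mutants. Mutants 74 and 79 were far above the controls and mutant 75 below them, and the difference of 0.23 ± 0.20 did not pass (adjusted p = 0.474). Eef2k, encoding the kinase that inhibits eEF2, was at 17.3, 29.9, 16 and 10.5 CPM and at 33.2, 9.39, 17.5, 18.3 and 19.5 CPM. For both genes control 72 was the highest control, mutant 74 the highest mutant and mutant 75 the lowest mutant. The 95% interval of the log2 difference of Eef2k was −0.56 to 0.74, and that of Eef2 −0.17 to 0.62.

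Several mRNAs of elongation factors and eIF3 are known to start with a terminal oligopyrimidine tract, the feature through which mTOR signalling controls their translation. For the 9 such genes listed (Eef1a1, Eef1b2, Eef1d, Eef1g, Eef2, Eif3e, Eif3f, Eif3h and Eif4b) all 9 fitted values were positive, 2 were called higher, and the median log2 fold change was 0.31. Over all 52 factors 88.5% of fitted values were positive, 21.2% were called higher and the median was 0.29, so these 9 were close to the factors as a whole. The annotated transcript of 1 of the 9, Eif3f, starts with C in a run of at least 5 pyrimidines. The list was set with earlier results known and is described without a test.

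**Figure D4:**
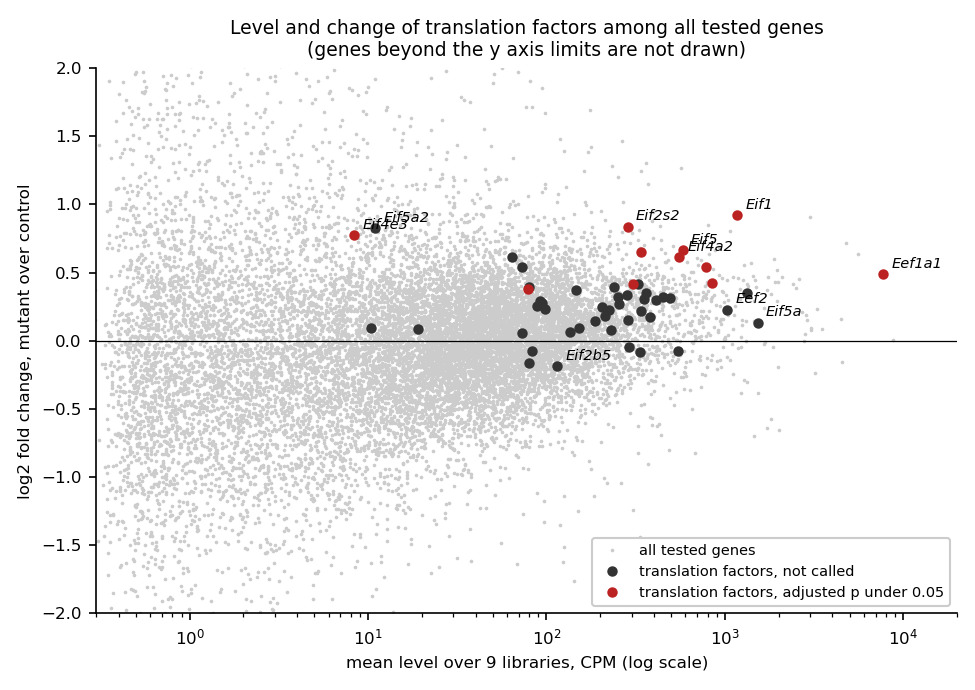
Mean level over the 9 libraries (CPM, log axis) against the fitted log2 fold change, mutant over control, for all 14990 tested genes (grey) and the 52 translation factors (dark, or red where the adjusted p was under 0.05). Of the factors 46 lie above 0, including the most abundant, Eef1a1, and the called ones span the range of levels from Eif4e3 upwards.

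A positive fitted value was found for 46 of the 52 factors, 88.5%, against 49.2% of all tested genes. The 6 negative values belonged to Eif2b5, Eif2d, Eif3l, Eif2b4, Eif4h and Eif3b, and none passed the threshold. Genes whose mean level reached 100 CPM, as 37 of the factors did, had a median log2 fold change of 0.11 (quartiles −0.08 and 0.31). Shares with a positive value, called or without overlap were not computed for such genes. The libraries were not alike within a genotype. Control 72 was the lowest control for 34 of the 52 tested factors, control 76 the highest control for 31, and mutant 74 the lowest mutant for 27 and the highest for 9. Those 9 were Eef2, Eef2k, Eif2b5, Eif2d, Eif3b, Eif3j2, Eif4b, Eif4g1 and Eif4g3. The median over factors of the log2 level, centred on each gene's mean, ran from −0.33 in control 72 to −7.8e-05 in control 76 and from −0.05 in mutant 74 to 0.29 in mutant 77. Mutant 74 therefore lay below control 76 by this measure. The TMM scaling factors ran from 1.01 in control 76 to 1.09 in control 72, and from 0.933 in mutant 77 to 1.03 in mutant 74. In each genotype the library with the largest scaling factor had the lowest median, and that with the smallest had the highest. How the scaling relates to the factor levels was not tested. Without mutant 74, 19 factors were called higher, 36.5% against 10.8% of all genes tested in that fit. Without control 72 or control 73, 4 each were called, 7.69% against 4.52% and 3.64% of all genes, and both times these were Eif5, Eif1, Eif2s2 and Eif4a2. Calls over the whole table moved the same way as those of the factors. Of 19 other settings, Eif5, Eif1, Eif2s2 and Eif4a2 were called in 18, Eif4e3 in 16, Eef1g in 14, Eif3a and Eif1a in 11, Eif4g2 and Eef1a1 in 9 and Eif1ad in 7.

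Paralogs other than Eif4a2 did not separate the genotypes by their share of reads per kilobase. Eif1b made up 18.8 ± 1.34% (SD) of Eif1 and Eif1b in the controls and 14.0 ± 2.22% in the mutants, and Eif1ax 30.5 ± 2.98% and 25 ± 2.42% of Eif1a and Eif1ax, each with 1 or more mutants among the controls. Eif4e3 made up 1.26 ± 0.256% and 1.80 ± 0.321% of the 3 cap-binding proteins. Eif4g3 held 28.2 ± 5.70% and 27.2 ± 0.903% of Eif4g1 and Eif4g3. Eif5a2 was a trace of the eIF5A mRNA in both genotypes, at 0.153 ± 0.0512% and 0.243 ± 0.0505%. These shares were not tested.

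**Figure D5:**
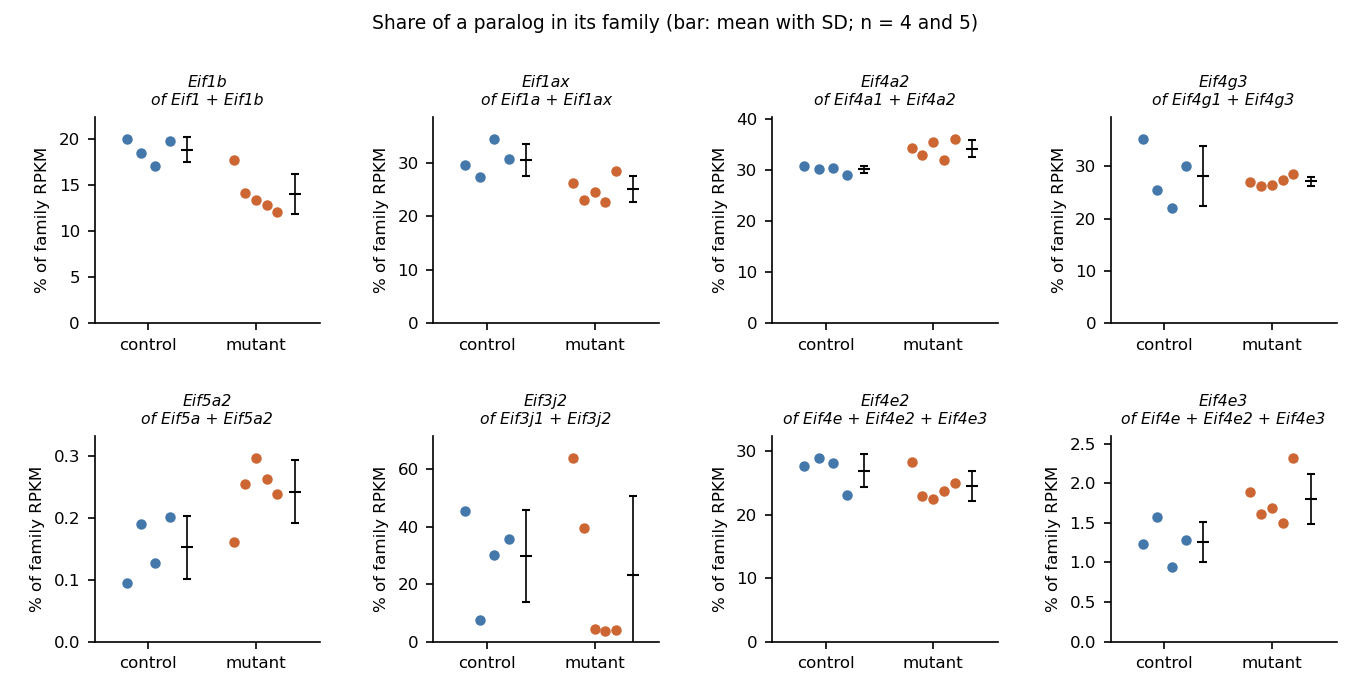
Share of a paralog in the summed RPKM of its family, in percent from 0, in each control and mutant library, with the mean and SD (n = 4 and 5). Of the panels drawn, the Eif4a2 panel alone has no overlap between genotypes, and the Eif3j2 panel spans 3.67% to 63.8%, with the lower end of its mutant SD bar below the axis.

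Promoters were searched for 4 short motifs on both strands, from 250 bases before to 50 bases after the start site, in RefSeq windows (GRCm38.p6) that were found for 41 of the 52 tested factors. CACGTG, the E-box that MYC and related proteins bind, was present in 12 of 41 factors, 29.3%, against 11.6% of 10475 tested genes with a window, and CCGGAAG, a motif of ETS proteins, in 15, 36.6% against 19.1%. The windows of the 4 factors whose E-box lay nearest upstream of the start site are shown, with the motif in capitals.
Eif1b (chr9:120492572-120492597, + strand), 24 bases upstream: tgcggacggtCACGTGgcggcggcgc
Eef2k (chr7:120842790-120842815, + strand), 31 bases upstream: cggggacggcCACGTGagcccgggcg
Eef2 (chr10:81176578-81176603, + strand), 43 bases upstream: ccggcgccgtCACGTGacgcacccaa
Eif3k (chr7:28981917-28981942, − strand), 44 bases upstream: ggaaggaaatCACGTGgtagacaaaa
None of these 4 was called between genotypes. Of the 7 called factors with a window, 1 (Eif3a) held CACGTG and 1 held CCGGAAG. TGATGNAAT, the motif of ATF4 with C/EBP proteins, was in none of the 41 windows and in 0.563% of all, and TGACGTCA, the cAMP response element, was in Eef2 alone, 2.44% against 3.62% of all. A match is a run of letters and not a bound site.

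Other genes of the translation pathway were read from lists of 58 genes, of which 57 were tested, 7 were called higher and 1 lower, with a median log2 fold change of 0.10. These 8 calls are 14.0% of the 57, against 14.8% of all tested genes called in either direction. By direction, 12.3% were called higher and 1.75% lower, against 7.82% and 7.02% of all tested genes. Eif4ebp1, encoding the repressor 4E-BP1 that binds eIF4E, was at 168, 107, 113 and 152 CPM in the controls and 277, 386, 373, 401 and 423 CPM in the mutants. All mutants were above all controls, and the rise was 2.76-fold (adjusted p = 0.000364). In the same list of 14 tested kinases, phosphatase subunits and 4E-BPs, of which 2 were called, 14.3%, Ppp1r15b, a subunit of the phosphatase that acts on eIF2 alpha, rose from 27.1 ± 3.61 to 61.0 ± 12.5 CPM (adjusted p = 0.00117). Ppp1r15a, the other phosphatase subunit gene on the list, was at 99.1 ± 18.2 CPM (SD) in the controls and 97.5 ± 14.4 CPM in the mutants (adjusted p = 0.933). The 4 eIF2 kinase genes were not called. Eif2ak2, encoding PKR, was lower in every mutant (3.54 to 5.17 CPM) than in any control (5.78 to 7.28 CPM) without passing the threshold (−0.59 ± 0.21, adjusted p = 0.0713), and Eif2ak4, encoding GCN2, had a log2 difference between −0.53 and 0.30 (95% interval).

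For the smaller lists the background is 7.82% of all tested genes called higher and 7.02% called lower. Of 12 cap and poly(A) partners 4, 33.3%, were called higher. These were the helicase gene Ddx3x (log2 fold change 0.74), the gene of the terminal oligopyrimidine binding protein Larp1 (0.68), Pabpc4 (0.62) and Larp4 (0.52). Ddx3x was at 216 to 267 CPM in the controls and 365 to 434 CPM in the mutants. Its Y-linked copy Ddx3y was at 119, 143 and 104 CPM in control 72, control 73 and mutant 79. The summed level of Ddx3x and Ddx3y was not tested. Of 9 termination and recycling genes 1, 11.1%, was called higher, which is near the background: Etf1, encoding the release factor eRF1 (0.66, adjusted p = 0.017). None of 9 hypusine and diphthamide enzymes, which modify eIF5A and eEF2, and none of 3 selenocysteine genes was called. Of 10 mitochondrial translation factors 1 was called lower, also near the background: Mtrf1, a mitochondrial release factor (−0.48, adjusted p = 0.0323).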

How the data were processed

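RNA-seq of 9 libraries (4 control, 5 mutant, E18.5) was used. The authors deposited a table of read counts per gene, 1 column per library, and these counts were used as deposited. Per the labels, the processing used STAR, DESeq2 and the build mm10. The tool that counted reads and the versions are not given in the sources used here. The deposited FPKM, normalized means, log2 fold changes, p-values and adjusted p-values are the authors' own and were not used. Groups came from the sample labels.

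The fit used edgeR 4.0.16 under R 4.3.3 (filterByExpr on genotype, TMM, robust quasi-likelihood test, 14990 genes, Benjamini-Hochberg threshold 0.05). Standard errors were obtained from each fitted value and its F statistic, and 95% intervals use a normal quantile. With this few libraries such intervals are somewhat too narrow. That of Eif4b was 0.014 to 0.48, while its unadjusted p was 0.057 in the quasi-likelihood test. RPKM were computed from the counts and the gene length in the table. Comparisons between genes by RPKM rest on that length, and its match to the transcripts expressed was not examined. Values in 1 library rest on 21040536 to 23986458 counts, so for abundant factors the spread between libraries sets the precision. Counts of 3 or fewer were a floor.

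Gene identifiers in the table were wrong for 6 of the 53 factors, so these were matched to GENCODE vM21 by symbol and position. Start codons came from GENCODE, promoters from RefSeq. Reads on 5 named pseudogenes of the factors were 0 to 30 per library. Reads of unnamed pseudogenes, such as copies of Eef1a1, were not examined. The fit was tested on simulated counts whose known changes were all larger than those fitted for the called factors. Smaller changes and library differences such as sex were not simulated, so sensitivity at the size of the called changes was not checked. The factors, the other lists and the markers were chosen with earlier results of these data known. By rule, values in every library are given for called factors, the subunits of eIF2 and eIF2B, Eif4e, Eif4g1, Eif4a1, Eif5a, Eef2 and the members of paralog pairs. Values given for Eif3c, Eif3f, Eif5b, Eef2k and Eif2ak2, and the library patterns, were singled out after their values were seen. The results were recomputed with DESeq2 1.42.0, with upper-quartile or RLE factors, 2 other filters, limma-voom (limma 3.58.1) with quality weights or cyclic loess, 1 surrogate variable (sva 3.50.0), a Y-linked covariate and each library left out. Figures used Python 3.11.15 and matplotlib 3.10.9.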

Additional observations from a re-analysis of the deposited data

Results flagged for a closer look

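In 104 groups of 4 or 5 libraries (52 factors in each genotype), 2 libraries stood apart from the others of their genotype by Dixon's test, where chance would give about 1 in 20, or 5.2. Eif2s3x was at 85.0 CPM in control 76, with the nearest other control at 51.0 CPM. Eif5b was at 84.6 CPM in mutant 79, with the nearest other mutant at 96.2 CPM.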

How the results depend on the processing

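No paired analysis was possible because litter is not given in the sources used here, and the replicate numbers, each used once, name no pairs. Against 11 factors called higher and 0 lower, DESeq2 gave 15 and 0 (all 11 among them), 28.8% against 9.65% of all genes called higher. RLE normalization gave 11 (21.2% against 8.11%), upper-quartile normalization 9 (17.3% against 6.77%), no filter 10 (18.9% against 3.91%) and a strict filter 11 (21.2% against 8.3%). Limma-voom with quality weights gave 31 higher (59.6% against 16%) and 1 lower (Eif2b5). In that fit 2403 of all 14990 genes were called higher, against 1172 in the edgeR fit, and 16.4% lower. Cyclic loess gave 7, all among the 11 (13.5% against 7.64%, 1145 of all genes), 1 surrogate variable 14 (26.9% against 9.35%) and the Y-linked covariate 10 (19.2% against 6.35%). The 6 libraries without Y-linked reads gave 0 called and 0 of the 11 (52 of all genes higher), an alternative chosen after the data were seen. Each library left out in turn gave 4 to 19 called, and 4 to 11 of the 11 stayed called. Without control 71, 72, 73 or 76 these were 6, 4, 4 and 13 (11.5%, 7.69%, 7.69% and 25% against 4.54%, 4.52%, 3.64% and 8.12% of all genes). Without mutant 74, 75, 77, 78 or 79 they were 19, 8, 5, 5 and 9 (36.5%, 15.4%, 9.62%, 9.62% and 17.3% against 10.8%, 5.71%, 5.6%, 4.86% and 6.13%). Eif5, Eif1, Eif2s2 and Eif4a2 were called in every setting but the libraries without Y-linked reads, where their adjusted p ran from 0.0979 to 0.194. The median log2 fold change ran from 0.17 (cyclic loess) to 0.35, and the cause of these differences was not tested. No called factor changed sign. Uncalled factors that did were, with quality weights, Eif3j2 (−1.11) and Eif4g1 (−0.14). With cyclic loess they were Eif6 (−0.035), Eef2 (−0.012), Eif3j2 (−0.48) and Eif5a (−0.085). With 1 surrogate variable they were Eif3i (−0.035), Eif2b1 (−0.096) and Eif3b (0.15), while Eef2 was called higher (0.44). With the Y-linked covariate they were Eif2b1 (−0.0072), Eif3j2 (−0.63) and Eif3b (0.072), and without Y-linked libraries Eif2b1 (−0.040), Eif3j2 (−0.17) and Eif3b (0.16). With a library left out, Eif3j2 ran from −0.60 to 0.45, Eif4g1 from −0.094 to 0.19, Eif3b from −0.17 to 0.071, Eef2k from −0.19 to 0.43 and Eif4g3 from −0.037 to 0.13. The rarest tested factors had at most 242 (Eif4e3), 352 (Eif5a2) and 626 (Eif3j2) counts per library, and depth as a limit was not tested.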

Other observations

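Paip1, encoding a partner of the poly(A)-binding protein and singled out after its values were seen, was at 20.8 CPM in mutant 78 and at 99.7 to 214 CPM in the other 8 libraries.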
